A study of Homo sapiens with 2 samples.

Results

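A set of 2596 methylated adenosines was examined that carry no gene name in the deposited lists but lie close to adenosines that do. Each is listed in both GLORI libraries under the entry ELSE in place of a gene name, at the same chromosome, position and strand, and each has a site of a named gene, listed in either library, within 10000 nt on the same strand. They make up 59.6% of the 4356 unnamed sites shared by the libraries and 4.29% of all 60462 shared sites. The 1760 other shared unnamed sites have no such neighbour, and 56106 shared sites belong to named genes. GLORI deaminates adenosines that carry no methyl group, so that they are read as G, and the share of reads still showing A is the methylation level of the site. The study holds 1 group, wild-type HEK293T cells (an established human embryonic kidney line) at the time labelled Day 0, with 2 GLORI-treated replicates, each made from 100 to 200 ng of oligo(dT)-selected mRNA. The labels give no untreated library and do not name separate cultures, so the spread between replicates may be technical.

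N6-methyladenosine (m6A) is written on the growing transcript by the METTL3 and METTL14 methyltransferase complex, which prefers adenosines followed by C within a short degenerate pattern known as DRACH. It is enriched in long internal exons and around stop codons, and it can also sit on sequence that splicing later removes or on transcripts that run past the usual end of a gene. A related mark, in which the first transcribed adenosine next to the cap carries m6A and 2'-O-methylation (m6Am), is written by another enzyme, PCIF1, outside the DRACH pattern; the reaction read here does not tell the marks apart.

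Sequences could be read where a site fell in a stretch from 250 bases before to 50 bases after an annotated gene start (RefSeq, GRCh38.p14), which held 138 of the 2596 sites. All 138 read A on the strand of the site. They are shown because they fell into different sequence classes with distance from the start. The following 8 are the most covered sites, 1 for each gene start and with at least 50 reads in both replicates, that lay within 50 nt before a start and did not match DRACH, spelled as A, G or T, then A or G, then the site, then C, then A, C or T. Each line runs 5′ to 3′ over 25 bases, and the capitals mark the site with 2 bases on either side.
RPL36, 30 nt before the start, chr19:5690253-5690277, plus strand: cctgagccgaGTAGAtatcccggag
HSPA1B, 1 nt before, chr6:31827725-31827749, plus strand: cgcgcggtccGGAAAacggccagcc
RPL41, 18 nt before, chr12:56116603-56116627, plus strand: ttaaatagccGTAGAcggaacttcg
MIF, 2 nt before, chr22:23894369-23894393, plus strand: aaaggcgggaCCACAgtggtgtccg
RHOA, 36 nt before, chr3:49412000-49412024, minus strand: tcggaggcgcGCACGtcgttccccg
SF3B6, 24 nt before, chr2:24076338-24076362, minus strand: ctattccgctGTAACagcttccggc
NCL, 13 nt before, chr2:231464485-231464509, minus strand: ctgggcaggcTCAGTctttcgcctc
NDUFB4, 4 nt before, chr3:120596320-120596344, plus strand: tcagaatcgcGCAGGcgcaattgtg

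The next 8 are the most covered sites of the same stretches that did match, again 1 for each start and with at least 50 reads in both replicates.
SNRPA, 155 nt before the start, chr19:40751036-40751060, plus strand: aggctgcctaGGACCtgtccctttt
EN2, 16 nt before, chr7:155458101-155458125, plus strand: gcgaagtcgaGGACTtggctctgtt
USP1, 209 nt before, chr1:62436828-62436852, plus strand: gcgttgtttgAAACTgtggaacccg
LOC128092248, 10 nt before, chr9:130713604-130713628, plus strand: tctaatgcccTGACTtcttccaatg
SMC4, 160 nt before, chr3:160400387-160400411, plus strand: acccggacacGAACTcgtttctcca
NLGN2, 109 nt before, chr17:7407724-7407748, plus strand: gctgggtcctGGACTtgaaccacat
IRF2BP2, 216 nt before, chr1:234609729-234609753, minus strand: cggccgggggGAACTgctgccgcgg
ACBD6, 213 nt before, chr1:180502778-180502802, minus strand: ccggagctcgGGACTgctaatttca

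The unnamed sites lay about equally on both sides of their named neighbour. By strand, 1278 (49.2%, 95% Wilson interval 47.3 to 51.2, for counting error only) were downstream of the nearest named-gene site and 1318 (50.8%) upstream. The median distance was 923 nt downstream and 1089 nt upstream. Over both sides 150 sites were within 100 nt, 1283 (49.4%) within 1000 nt and 2243 (86.4%) within 5000 nt. The farthest site lay 9980 nt away, and the closest shared unnamed site outside the limit 10044 nt away. The nearest sites belonged to 966 gene names, 961 of which were found in the RefSeq table. At 868 of the unnamed sites the nearest named site was listed in 1 replicate only.

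**Figure D1:**
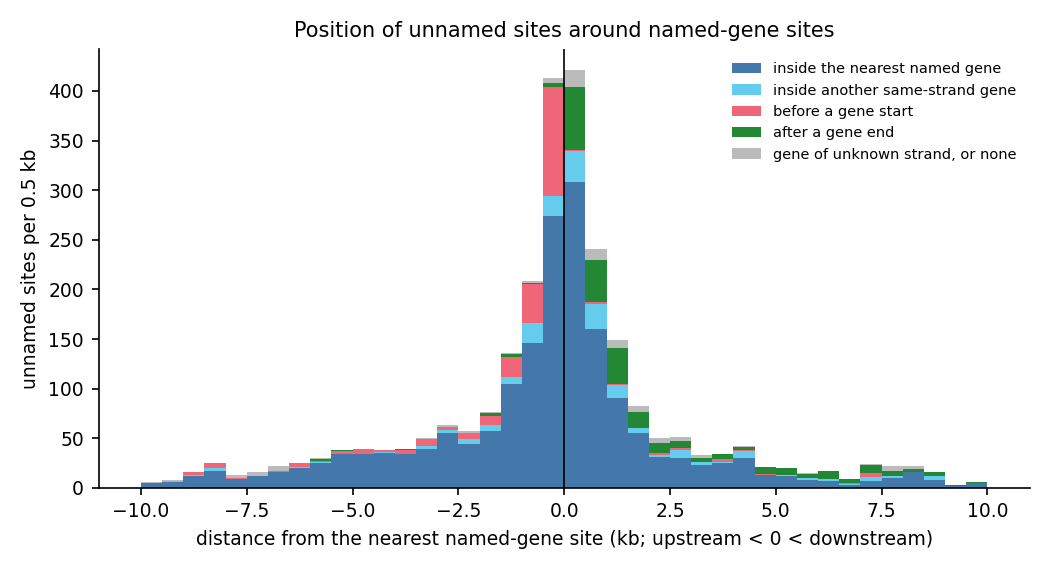
Number of unnamed sites (y axis, per 0.5 kb) by distance from the nearest named-gene site (x axis, kb, negative upstream and positive downstream by strand), coloured by place in the RefSeq annotation. The counts fall away on both sides, and sites inside the body of the nearest named gene (1823 of 2596) are the largest class.

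Most of these sites were unnamed in the lists but not outside genes. When set against RefSeq's gene bodies on the same strand, 1823 (70.2%) lay between the annotated start and end of the nearest named gene itself, and another 183 (7.05%) inside a different gene of that strand. Of the 1760 unnamed sites without a named neighbour, 517 (29.4%) lay inside a same-strand gene. Having a same-strand named-gene site within 10000 nt defined the sets, so this share does not test a difference between them. Strand also came in part from the deposited sites of named genes. A gene of unknown strand was overlapped by 208 (11.8%) of the 1760 sites and 93 (3.58%) of those near a named gene. Of the sites near a named gene, a further 255 (9.82%) lay within 10000 nt after a gene end. Another 241 (9.28%) lay within 10000 nt before a start. Of the rest, 93 overlapped a gene whose strand was not known here, and 1 was in none of these classes. Strand was known for 50.5% of the annotated genes, so the shares inside genes are lower limits. The table gives no exons, and sites in introns and in exons were not separated.

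Sites inside the nearest gene were often enclosed by it: 1102 of the 1823 had named sites of that same gene as the next named site on both sides. Their median level was 40.3%, with quartiles at 26.3% and 63.8% and medians of 40% in replicate 1 and 40.9% in replicate 2. Sites after a gene end had a median of 50.5% (27.5% to 69.6%, 50% and 48.8% in the replicates), and those before a start 38.2% (23.1% to 61.9%, 38.5% and 38.1%). These quartile ranges overlapped widely. Median reads summed over both replicates were 64, 64 and 78 in these classes. With at least 30 reads in both replicates the medians were 31.05% inside the gene (866 sites), 37.6% after the end (116) and 27.2% before the start (138). Sites are not replicates, so no test was made between the classes.

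The neighbours were less often ordinary protein-coding genes than the named sites as a whole. Protein-coding neighbours accounted for 1957 sites (75.4%), while 94.5% of shared named-gene sites were in protein-coding genes. Long noncoding RNA genes had 275 (10.6%, against 2.15% of named-gene sites), transcribed pseudogenes 192 (7.40%, against 0.925%; DUXAP10 held 58 of these and DDX12P 28) and other pseudogenes 152 (5.86%, against 2.26%). Of the 255 sites after a gene end, 106 (41.6%) had a pseudogene, transcribed or not, as nearest named gene. Of the 1823 inside the nearest gene, 138 (7.57%) did. Which of these pseudogenes are processed was not determined. Reads of a processed pseudogene and of its parent gene can be hard to assign, so these sites are uncertain in origin. Without them the median after a gene end was 54.3% (149 sites) and inside the nearest gene 40%.

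Coverage was modest. The sites were covered by a median of 30 reads in replicate 1 (15 to 1489) and 36 in replicate 2 (15 to 1687), and held 120434 and 140423 reads of A or G in all. Levels ran from 10% to 100% in both replicates, with medians of 40.1% and 40.9%. The median of the mean level was 40.7%, with quartiles at 25.8% and 63.9%; 354 sites (13.6%) were at 80% or more and 401 (15.4%) under 20%. Unnamed sites without a named neighbour had a median of 44.04% and named-gene sites 44.9%, of which 20.1% were at 80% or more. Median summed reads were 66, 63 and 94 in these 3 sets. No listed site had fewer than 15 reads, 5 A reads or a level under 10%, so a thinly covered adenosine could be listed only at a high level.

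Levels were therefore compared within classes of coverage, taken from the less covered replicate. At 15 to 29 reads the median was 47.1% for the sites near a named gene (1309 sites), 51.7% for the unnamed sites far from one and 57.03% for named-gene sites. At 30 to 49 reads the medians were 33.8%, 35.1% and 44.01%, and at 50 to 99 reads 28.0%, 27.7% and 36.4%. At 100 reads or more they were 25.5% (173 sites), 27.7% and 31.8%. In every class both unnamed sets were below the named-gene sites, and the quartile ranges overlapped. Downstream sites had a median of 42.4% and upstream sites 38.6%. Within coverage classes downstream was above upstream in the first 3 (50.2% and 44.8%, 35.7% and 31.3%, 29.6% and 26.6%) and below it at 100 reads or more (22.8% and 26.5%).

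**Figure D2:**
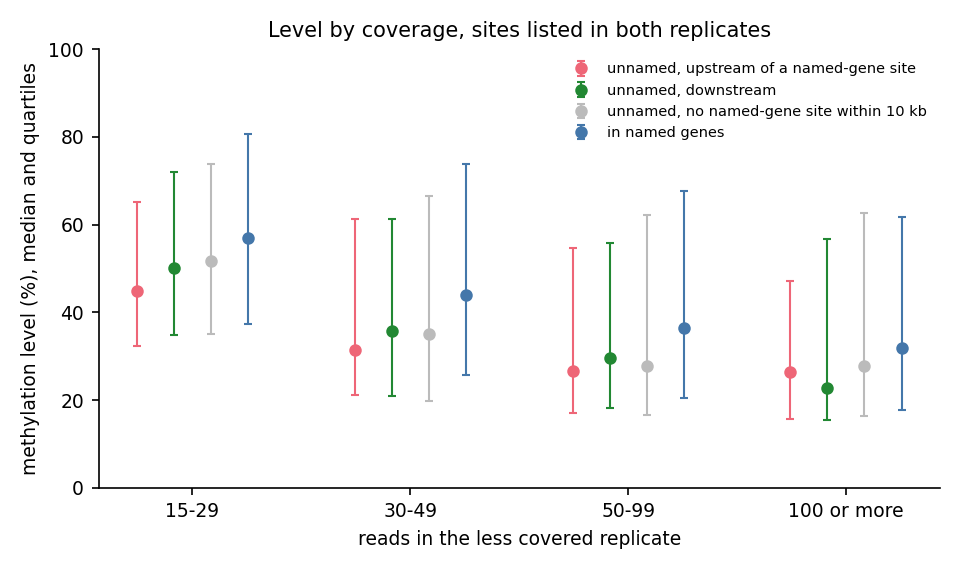
Median methylation level (y axis, %; points) with quartiles (bars) by reads in the less covered replicate (x axis), for unnamed sites upstream and downstream of a named-gene site, unnamed sites with none within 10 kb, and named-gene sites. Medians fall with coverage in all 4 sets, from 44.8% to 26.5% in the upstream set.

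The replicates gave similar levels at these sites. Across the sites Pearson's r was 0.909 and Spearman's rho 0.898, a description over sites that share 2 libraries. Levels moved by 5.83 percentage points at the median, in absolute size, and by at most 22.7 points at 95% of the positions. Fisher's exact test on the A and G counts, adjusted over all shared sites by Benjamini-Hochberg, called 0 of the 2596 sites, and it called 0% of all 60462 sites. At an unadjusted p under 0.05 there were 79 sites (3.04%), against 3.06% of all shared sites. A chi-square test of the same counts also called 0 after adjustment, with 110 sites at an unadjusted p under 0.05. Values are given below for both replicates, with no SD. No shared site was called between the libraries, which were treated as 1 sample. With so few reads at most sites only large differences could be called, so the libraries are not shown to be alike. Sites listed in 1 library were not tested: the 2596 are 76.4% of the 3400 unnamed sites within the limit in replicate 1 and 61.6% of the 4213 in replicate 2.

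**Figure D3:**
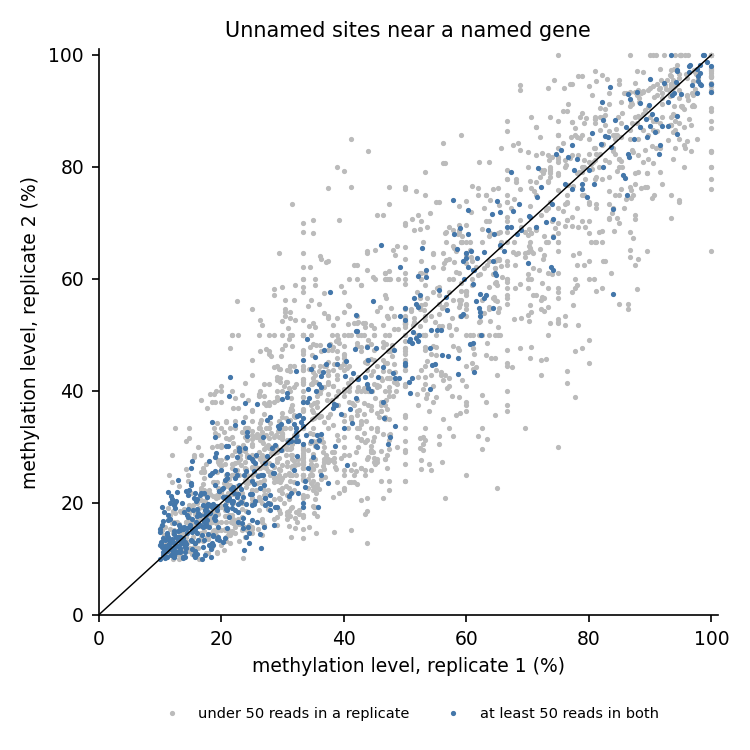
Methylation level of each unnamed site in replicate 1 (x axis, %) and replicate 2 (y axis, %), with sites of at least 50 reads in both replicates in blue and the diagonal drawn. Points follow the diagonal from 10% to 100%, with a median absolute difference of 5.83 points.

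Near gene starts, pattern and level changed with distance. Of 65 sites in the first 50 nt before 58 annotated starts, 15 (23.1%, 95% Wilson interval 14.5 to 34.6) matched DRACH. Of 70 sites at 51 to 250 nt before 50 starts, 50 matched (71.4%, 59.9 to 80.7). Named-gene sites in the same ranges showed 23.5% and 85.9%, and unnamed sites far from named ones 9.09% and 81.8% (33 and 11 sites). Of all adenines at these distances in 34943 annotated stretches, 7.25% and 7.23% match, and 97.2% of the stretches hold at least 1 match on their strand. Directly before the site stood a C at 30 of the 65 close sites and 6 of the 70 others, and directly after it at 27 and 65. Median levels were 26.04% (27.5% and 26.9% in the replicates) close to the start and 42.0% (40.1% and 42.8%) farther off, at medians of 96 and 83 summed reads. Both distance ranges were chosen after the positions had been seen. Some of the sites, and more of the farther ones, also lay inside an annotated gene body on the same strand. The ranges were not split by this.

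**Figure D4:**
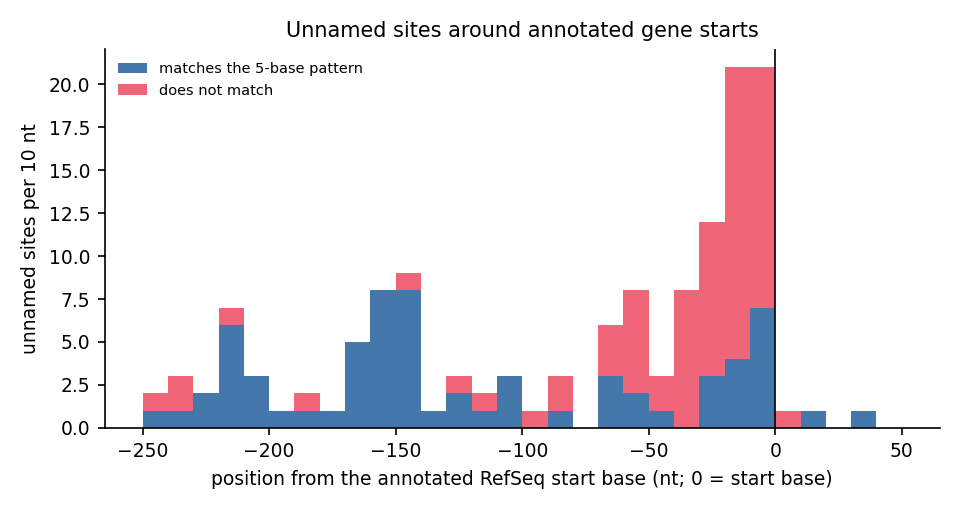
Unnamed sites (y axis, per 10 nt) by position from the annotated start base (x axis, nt, negative before the start), split by whether the 5 bases around the site match DRACH. Close to the start most sites do not match (15 of 65 do within 50 nt before it), and farther off most do (50 of 70).

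Several of the closest sites sat beside a named site on the annotated start base. Among the 241 sites before a start, the nearest named site lay on the start base at 27 and within 5 nt after it at 38. At HSPA1B, which encodes an inducible HSP70 chaperone, the unnamed site was 1 nt upstream of a named site on the start base, with 34.1% of 361 reads in replicate 1 and 38.02% of 405 in replicate 2. The start-base site was not in both lists, and the nearest shared named site, position 31827872, stood at 86.4% and 85.04% (adjusted p = 2.1e-185, Fisher's exact test). HSPA1B has a near-identical copy, HSPA1A, so its reads may be shared between the genes. ATP5MC3, an ATP synthase subunit gene, had an unnamed site 4 nt before its start-base site, at 22.0% (41 reads) and 26.9% (52 reads).

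A pair of sites lay 2 nt upstream of a named site but inside a RefSeq gene of unknown strand. The site at MIF, a cytokine gene, had 33.9% of 236 reads and 32.1% of 221. The one at HNRNPU, which encodes a nuclear RNA-binding protein, had 17.02% of 47 and 19.5% of 41. Both positions were under 35% in both replicates.

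Other sites within 50 nt before a start lay at genes of ribosomal, nucleolar, splicing and respiratory proteins. RPL36, a ribosomal protein gene, had 17.3% of 919 reads and 17.8% of 1022, and RPL41, another, 10.4% of 230 and 16.7% of 251. NCL, which encodes nucleolin, had 29.8% of 124 reads and 34.1% of 135, 13 nt upstream of a named site. NDUFB4, a respiratory complex I subunit gene, had 11.1% of 108 and 11.4% of 105. SF3B6, a splicing factor gene, had 13.1% of 168 and 16.1% of 143. These levels were all under 35%, and the replicates lay within 7 points of each other. The sites were chosen by coverage, so this does not describe all sites of such genes in this range. Less covered sites before COX6B1 and COX6A1, for example, stood above 35% in both replicates. At COX6A1 the replicates lay more than 7 points apart.

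The nearest named gene was not always the one whose start followed. The site 36 nt before the start of RHOA, a small GTPase gene (10.3% of 165 reads and 12.1% of 190), was counted as downstream of AMT, whose nearest site was 4813 nt away. The site 425 nt before the start of TPM2 at position 35690481 of chromosome 9 (minus strand) was counted as 7272 nt downstream of a named site of TLN1. Of the 241 sites before a start, the gene that started there was the nearest named gene at 217, and of the 255 after an end, the gene that ended there was the nearest at 215.

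The 8 matching sites printed above had mean levels from 16.1% to 99.01%, and the 8 that did not match from 11.2% to 36.05%. These ranges are not a like comparison, since only the sites that did not match were limited to 50 nt before a start. Both lists were chosen by coverage, and some less covered sites that did not match, such as that before UBL5, stood above 36.05%. Of the matching sites, 5 lay inside the annotated body of their nearest gene, whose outermost start is farther upstream than the start used for the sequence. The one before EN2, an engrailed homeobox transcription factor gene, was methylated at 99.2% of 133 reads and 98.8% of 163, although it was only 16 nt before the start. SNRPA, a spliceosomal U1 protein gene, had 68.3% of 186 reads and 68.04% of 219. NLGN2, a synaptic adhesion gene, had 54.02% of 87 and 47.7% of 111, and ACBD6 50% of 70 and 54.7% of 95. SMC4, a condensin subunit gene, had 58.6% of 87 reads and 43.1% of 116. USP1, a deubiquitinase gene, had 40.2% of 117 and 42.6% of 101, and IRF2BP2 had 23.8% of 84 and 29.8% of 84. The site 309 nt upstream of the named site of ABL1, a tyrosine kinase gene, was the lowest, at 17.8% of 101 and 14.4% of 111.

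Each shared site was then tested against its nearest other shared named-gene site, by Fisher's exact test on reads summed over both replicates, adjusted over all 54895 such pairs and called where the adjusted p was under 0.05 and both replicates gave the same sign. Of 2419 unnamed sites with such a neighbour, 793 (32.8%) were called higher and 672 (27.8%) lower, while 32.1% of all pairs were called higher and 33.3% lower. The 2419 sites shared 976 neighbours and are not independent. Their median distance was 1108 nt, against 49 nt for pairs of named-gene sites, and they had 67 summed reads at the median where their neighbours had 111. With at least 50 reads in both replicates at both positions, 33.7% of 362 were higher and 38.1% lower, against 37.0% and 38.6% of named-gene pairs. Over the 2419 sites the share called higher was near that of all pairs, and the share called lower was below it. At the limit of 50 reads the share called lower was near that of named-gene pairs, and the share called higher was below it. Which direction had more calls depended on coverage: with 30 reads or more in both replicates at both positions 31.8% were higher and 34.3% lower, and with 1 site per run 26.9% and 29.6%. The median difference was 2.52 points (quartiles -18.9 and 24.3), with 1.94 points upstream and 3.01 downstream. The test compares 2 positions in these libraries, not conditions.

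**Figure D5:**
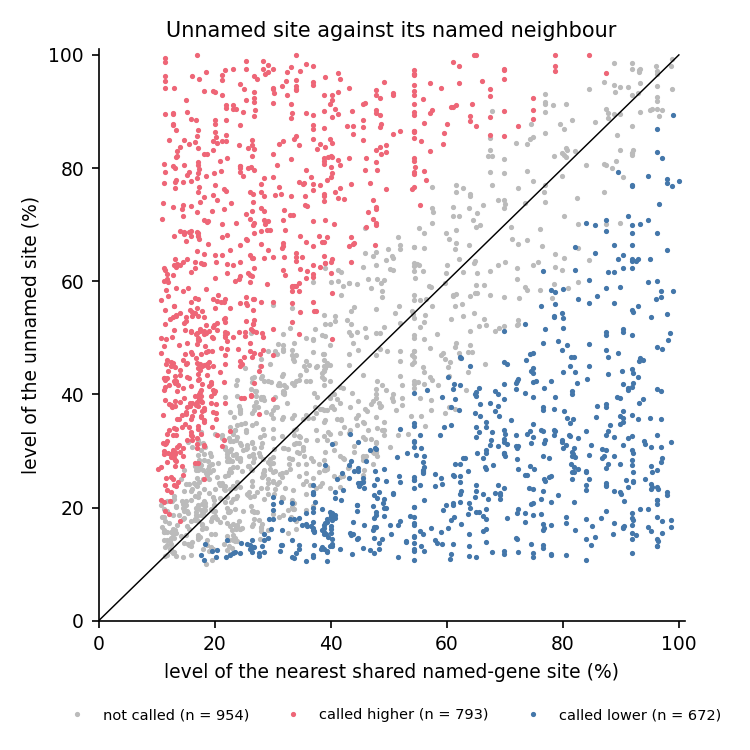
Mean level of each unnamed site (y axis, %) against its nearest shared named-gene site (x axis, %), coloured by the call of Fisher's exact test with Benjamini-Hochberg adjustment. The 793 sites called higher and 672 called lower spread over the whole range on both sides of the diagonal; columns of points share a neighbour.

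The largest positive differences brought nearly complete methylation beside weak methylation. The site at position 65407684 of chromosome X (plus strand) lay 845 nt upstream of a named site of the pseudogene TLE1P1 and inside ZC3H12B. It had 98.8% of 86 reads and 100% of 103, against 11.3% and 11.7% at the TLE1P1 site (adjusted p = 7.0e-112, Fisher's exact test). A second site there, at 65407017, had 97.6% and 93.2%. In TCEA2, a transcription elongation factor gene, position 64063646 of chromosome 20 (plus strand) had 94.4% of 126 reads and 97.2% of 143, against 16.2% and 18.4% at position 64069789 (adjusted p = 4.9e-64, Fisher's exact test); its closest named site, 466 nt upstream, was not in both lists.

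Smaller positive differences followed. In IER2, an immediate early gene, position 13150640 of chromosome 19 (plus strand) had 98.2% of 56 reads and 94.8% of 58, 131 nt downstream of a named site at 19.1% and 23.4%. Position 38296720 of chromosome 22 (minus strand) in TPTEP2-CSNK1E had 92.2% of 103 reads and 94.96% of 119, against 20.3% and 16.0%. Position 52733184 of chromosome 12 (plus strand), 122 nt after the end of LOC400036, had 88.3% and 87.1%, against 10.8% and 14.9%. In all of these the replicates of the unnamed site lay above both replicates of the neighbour. The sites were chosen for large called differences with the same sign in both replicates, so this adds no support.

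The largest negative differences were of like size. In SPEN, a transcriptional repressor gene, position 15873456 of chromosome 1 (plus strand) had 14.3% of 56 reads and 12% of 50, and position 15874063 had 13.5% of 89 and 12.9% of 101, against 98.4% and 94.2% at the named site 15873128 (adjusted p = 1.9e-42 and 5.5e-55, Fisher's exact test). The site 786 nt downstream of a named site of the pseudogene LOC391741 on chromosome 5 lay inside LOC124900945. It had 14.9% of 228 reads and 16.1% of 311, against 97.9% and 96.2%. In RABL6, a RAB-like GTPase gene, position 136832939 of chromosome 9 (plus strand) had 13.8% of 80 and 10.2% of 88, against 91.5% and 92.3%. The site 1247 nt downstream of a named site of FEM1AP2, a pseudogene on chromosome 18, had 19.6% and 13.3%, against 98.7% in each. The TLN1 neighbour described above stood at 94.5% and 94.7%, against 18.7% of 91 reads and 14.3% of 119.

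Of the 10 best covered unnamed sites, 8 had mean levels under 20%. The top site, 753 nt after the end of the pseudogene PTMAP13 (position 76650656 of chromosome 17, minus strand), had 14.1% of 1489 reads and 13.04% of 1687. The next, 383 nt after ACTG1P24, had 18.8% of 1189 and 17.4% of 1527, and lay 405 nt from a named site at 86.7% and 86.4%. The third, 76 nt before TUBBP2, had 18.5% of 1077 and 19.6% of 1320. All of these neighbours are pseudogenes of abundant mRNAs (prothymosin alpha, gamma-actin and a tubulin), with the uncertainty named above.

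Another 6 of the 10 best covered sites lay in DDX17, which encodes a DEAD-box RNA helicase. DDX17 had 8 unnamed sites in all, every one inside its body and upstream of the named site 38488082 of chromosome 22 (minus strand), which stood at 39.8% of 231 reads and 40.6% of 310. Position 38489365 had 14.4% of 1033 reads and 14.6% of 1263, and position 38489382 17.9% of 770 and 19.8% of 895. Position 38490006 had 62.9% of 560 and 64.8% of 634, while 38490073, which is 67 nt away, had 18.2% of 592 and 19.7% of 646. Position 38488135 had 38.4% and 37.6%, and 38488139, 4 nt from it, 13.2% and 13.9%. Fisher's exact test called 1 of these 6 positions higher than the named site (38490006, adjusted p = 4.1e-19) and 4 lower (adjusted p at most 2.1e-19), and did not call 38488135 (adjusted p = 0.444). These positions were more deeply covered than the named site itself. All were tested against that same site, so the calls are not independent. Over all pairs 32.1% were called higher and 33.3% lower. The 8 unnamed sites of DDX17 had a median of 25.1% and its 20 shared named sites 19.7%. Calls and medians thus ran in different directions.

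Where both replicates had 50 reads or more, the 8 highest sites had mean levels of 97.4% to 99.4%. In FBXL14, an F-box gene, position 1592617 of chromosome 12 (minus strand) had 98.6% of 73 reads and 100% of 91. Position 121172009 of chromosome 9 (minus strand) lay 6124 nt after the end of RAB14, a trafficking GTPase gene, inside CNTRL on the other strand, and had 100% of 249 reads and 97.9% of 290. The site 602 nt downstream of a named site of HOXA6, inside HOXA3, had 98.2% of 55 and 96.8% of 63. OVCH1-AS1, an antisense RNA, had 98.2% of 55 and 98.2% of 57 at position 29390216 of chromosome 12 (plus strand). The remaining 4 are the sites at TLE1P1 and EN2 given above, 1 near RCC2P6 inside ASRGL1 (97.7% of 171 and 97.4% of 156) and 1 in DUXAP10 (100% of 73 and 94.8% of 96). These 8 lay before, inside and after genes.

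The 8 lowest sites of that depth, with mean levels of 10% to 11.2%, stood at the floor of the lists, and 7 of them lay inside a gene. GTSE1 had 10% of 50 reads and 10% of 70 at position 46297132 of chromosome 22 (plus strand). SLC9A3-AS1 had 10.8% of 93 and 10.2% of 88, TPTEP2-CSNK1E 10.9% of 101 and 10.5% of 95, and DUXAP10 11.03% of 281 and 10.4% of 307. HOXD11, a homeobox gene, had 11.2% of 125 and 10.3% of 136, and ARFGAP1 10.6% of 94 and 11.8% of 102. The site 32 nt before the start of LSM8, an RNA-binding Sm-like protein gene, had 10.4% of 67 and 10.7% of 75. The site 6 nt downstream of a named site in the pseudogene ACTG1P14, and inside KDM4C, had 10.4% of 211 and 11.3% of 301, against 55.7% and 65.3% (adjusted p = 2.5e-64, Fisher's exact test).

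On the downstream side the other closest sites were 18 to 28 nt away. LOC102724135 was followed at 18 nt, and 1 nt past its end, by a site at 53.3% of 30 reads and 61.1% of 18. The pseudogene LOC100422233 was followed at 18 nt by one at 86.4% of 22 and 55.6% of 27. WDR27 had one at 25 nt (75% of 24 and 83.3% of 18). PAXBP1 had one at 28 nt, with 48.1% of 79 reads and 43.2% of 81, against 10.4% and 14.5% at its nearest shared named site, position 32759940 (adjusted p = 2.5e-10, Fisher's exact test).

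The sites gathered into runs, in which each was at most 10000 nt from the next on its strand. There were 944 runs, 503 of them of a single site, and 39 runs of 10 or more held 688 sites. Adjacent sites of a run were a median of 110 nt apart; 7 of the 1652 gaps were of 3 nt or less. Of 340 gaps of 4 to 30 nt, 35.3% were multiples of 3 (95% Wilson interval 30.4 to 40.5). By gene, 501 names had 1 unnamed site and 36 had at least 10, with 594 sites.

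The longest run surrounded DUXAP10, a transcribed pseudogene on chromosome 14 (minus strand), with 58 sites between positions 19293023 and 19306954. Levels ran from 10.7% to 97.4% with a median of 48.8% (49.3% and 52.03% in the replicates), and 54 of the sites lay inside DUXAP10, which had 1 shared named site. DUXAP10 belongs to a family of similar copies, so its reads may be shared with them. DDX12P, a transcribed helicase pseudogene on chromosome 12 (minus strand), had 28 sites from 14.4% to 86.7%, of which 27 were downstream of their named neighbour. Against the nearest shared named site 17 were called higher and 0 lower, while over all pairs 32.1% were higher and 33.3% lower. The median of the 28 was 36.2%, and that of the 8 shared named sites of DDX12P 39.7%, so the calls and the medians ran in different directions. SLC9A3-AS1, a long noncoding RNA on chromosome 5 (plus strand), had 29 sites between 473695 and 480321 at a median of 57.9%, all enclosed by its named sites, 22 of which were shared and had a median of 48.1%. SLC9A3 runs over the same stretch on the other strand.

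The other genes with the most unnamed sites encode proteins, and all their sites lay inside the gene. WDR27, a WD-repeat gene on chromosome 6 (minus strand), had 32 between positions 169664330 and 169668753, at a median of 39.4% (38.1% and 37.9%), against 48.2% over 6 shared named sites; 8 were called higher than their neighbour and 15 lower. RABL6 had 26 at a median of 45.7%, 24 of them upstream of the named neighbour, and 16 were called lower than it and 1 higher, beside 33.3% and 32.1% of all pairs; its 11 shared named sites had a median of 60.4%. SPEN had 22 between 15873189 and 15874296, all downstream of the same named site at 98.4% and 94.2%, which leaves little room above it; 16 were called lower than it and 0 higher. Their median of mean levels was 44.7%, and that of SPEN's 91 shared named sites 40.9%. Their medians were 52.5% in replicate 1 and 36.4% in replicate 2, and the range of mean levels was 13.1% to 97.2%. TPTEP2-CSNK1E, a readthrough gene with casein kinase 1 epsilon, had 22 upstream sites at a median of 37.45%, of which 17 were called higher and 1 lower than their neighbour. The 6 shared named sites of that gene had a median of 35.0%. All 22 were set against 1 named site at 18.1%, as all 28 of DDX12P were against 1 at 17.1% and the 26 of RABL6 against 2 at 47.9% and 91.9%, so the calls within a gene are not independent. The 32 sites of WDR27 shared 3 neighbours. For each of these genes the background is that of all pairs, 32.1% called higher and 33.3% lower.

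AHRR, which encodes a repressor of the aryl hydrocarbon receptor, had 17 at a median of 29.1% (28.2% and 30.2%), whereas its 13 shared named sites had 69.5%; against the nearest of these, at 45.6%, 4 of the 17 were called higher and 3 lower. BRSK2, a kinase gene, showed the reverse order, with 17 at 65.2% (68% and 62.5%) against 27.6% over 11 named sites; against the nearest of these, at 47.8%, 8 were called higher and 1 lower. Over all pairs 32.1% were called higher and 33.3% lower. In each of these genes all 17 sites shared 1 neighbour, so the calls are not independent. Median summed reads were 62 and 49 in AHRR, and 51 and 131 in BRSK2, for unnamed and named sites. SAMD11 had 17 at 62.7% and 6 named sites at 58.8%. These are medians over sites of 1 gene, with no test.

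The deposited p-value of an unnamed site rests on a conversion fraction pooled over all unnamed sites of its chromosome, which ran from 97.6% to 98.2% in replicate 1 and from 97.5% to 98.2% in replicate 2. The neighbouring genes had a wider range, with a median of 97.3% in replicate 1 and 97.4% in replicate 2 and 5th percentiles of 94.4% and 94.3%. A binomial tail was computed with the neighbour's conversion for the 2508 sites that had it in both lists. By that tail 61 sites in replicate 1 and 50 in replicate 2 exceeded the largest deposited p-value of 0.004. In both replicates 2414 sites were under that value.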

How the data were processed

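Per the labels, oligo(dT)-selected mRNA of wild-type HEK293T cells received the GLORI reaction, and libraries followed a modified eCLIP protocol. Build GRCh38 and the tools SAMtools, Bowtie, STAR and Trim Galore 0.6.6 appear, with no settings, per the submitters' processing notes. For the site caller, nothing is given in the sources used here, and likewise for the annotation. The authors deposited 1 list of sites for each replicate, with counts of A and of A plus G reads, their ratio as a fraction, a conversion fraction, a gene coverage signal (not used) and p-values per site, per the file headers.

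A level is A reads divided by A plus G reads, and a site's level the mean of both replicates. Fisher's exact test, two-sided, and Benjamini-Hochberg adjustment at 0.05 were run over all shared sites (Python 3.11.15, scipy 1.17.1) and tested on simulated data. A site equally close to named sites on both sides was assigned to the one in both lists, then counted as downstream. Gene bodies, biotypes and sequences came from RefSeq (GRCh38.p14), strand from RefSeq's start table or the deposited sites of that gene.

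Named sites, leaving out chromosome 8, are the 10 best covered, the 8 highest and 8 lowest with 50 reads in both replicates, the 5 closest on each side, the 6 largest called differences each way and the 10 genes with the most sites; 1 site under this rule is not reported here. Further sites near starts were chosen after their values were seen. The members and lists were chosen with earlier results of these data known. Alternatives covered coverage, distance, level, runs, gene bodies and each replicate alone. Intervals cover counting error only, since reads may be copies of 1 molecule.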

Additional observations from a re-analysis of the deposited data

How the results depend on the processing

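Downstream sites kept the higher median level under each alternative listed here, though not in the class of 100 reads or more. In the neighbour test, calls of higher outnumbered calls of lower (32.8% and 27.8%), but the order turned at 30 reads (31.8% and 34.3%), at 50 reads (33.5% and 39.2%) and with 1 site per run (26.9% and 29.6%). Over all alternatives these shares ran from 25.1% to 33.9% higher and from 20.7% to 39.2% lower. The downstream share, 49.2%, passed to the other side of equal shares in several alternatives. It was 50.1% within 5000 nt, 51.6% within 1000 nt, 50.2% without the 10 genes with the most sites and 54.7% outside same-strand gene bodies. Without pseudogene neighbours it was 46.0%. The median level, 40.7%, became 30.6% at 30 reads and 26.7% at 50 reads in both replicates, 39.99% within 5000 nt, 42.2% within 1000 nt, 35.7% with 1 site per run, 41.9% outside gene bodies, 48.6% at a level of at least 20%, 41.75% with the neighbour's conversion, and 35% to 36.06% with each replicate left out. The difference between sides, 3.86 points, became 1.33 at 30 reads, 0.227 at 50 reads, 3.54 within 5000 nt, 5.19 within 1000 nt, 4.20 with named sites of both lists, 5.06 with 1 site per run, 7.92 outside gene bodies, 4.12 at a level of at least 20%, 4.55 with the neighbour's conversion, 4.33 without the 10 genes with the most sites, 4.16 without pseudogene neighbours, and 3.27 to 3.51 with each replicate left out. The cause of these shifts was not tested; the coverage and level limits remove sites by construction. The settings on conversion, pseudogene neighbours and the 10 genes were chosen after seeing the data. With the replicate as a block (Cochran-Mantel-Haenszel), 33.9% were called higher and 28.5% lower. No paired analysis was possible because the study has 1 group. Depth limits single sites: at 15 reads only large differences can be called.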

Other observations

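HOX genes, which encode the homeobox transcription factors that pattern the body axis, recurred among the neighbours; this group was picked after its values had been seen. Of the 2596 sites, 92 (3.54%) had a HOX gene of the A, B, C or D cluster as nearest named gene, while HOX genes held 0.574% of shared named-gene sites. The 18 gene names include the antisense RNA HOXA11-AS, with 6 sites, and the readthrough gene HOXA10-HOXA9, with 1. The sites formed 9 runs, with 54 sites at cluster A, 7 at B, 5 at C and 26 at D. HOXA5 and HOXD11 had 13 each, HOXA6 had 10, and HOXA13 and HOXD10 had 9 each. By annotation 35 lay inside the nearest HOX gene, 28 inside another gene of the same strand, 12 after an end and 17 before a start. Their median level was 30.7% (33.5% and 28.99% in the replicates), against 53.6% over 322 named HOX sites, at medians of 94.5 and 130.5 summed reads. Fisher's exact test called 15 of 92 higher and 44 lower than their named neighbour, while over all pairs 32.1% were called higher and 33.3% lower. The 92 sites share 27 neighbours and are not independent.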
